A study of Mus musculus with 6 samples.

Results

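The genes described here are 6 CC chemokines (Ccl2, Ccl6, Ccl7, Ccl8, Ccl9 and Ccl11), the CXC chemokine Cxcl12 and 2 chemokine receptors of myeloid cells (Ccr2 and Cx3cr1). They were taken by symbol, 9 of the 16247 genes in the authors' normalized table, and joined by Ensembl identifier to the raw counts. RNA-seq of whole soleus, a slow postural muscle of the calf, compared 3 mice heterozygous for the Mustn1 KO-first allele (HET) with 3 wild-type (WT) littermates. All mice were 8 weeks old and of the strain C57BL6/N by their labels, with 1 library of poly-A RNA per mouse and no treatment named. The KO-first allele is present in every cell of the body and carries a lacZ and neomycin cassette that traps the transcript of Mustn1. Mustn1 encodes a microprotein of smooth muscle, skeletal muscle and other musculoskeletal tissues. The allele is not a clean deletion, since some normal splicing can remain, and a HET mouse keeps 1 unmodified copy.

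Chemokines are small secreted proteins that direct the movement of leukocytes. CC chemokines, in which the first cysteines are adjacent, act mainly on monocytes, macrophages, eosinophils and lymphocytes, and CXC chemokines have 1 residue between those cysteines. Their receptors span the membrane and signal through Gi proteins. In skeletal muscle, CCR2 draws monocytes from the blood and CX3CR1 marks monocytes and tissue macrophages, while the stroma between the fibers, made up of fibro-adipogenic progenitors and vascular cells, is a main source of CXCL12 and CCL11.

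The family signature can be read in the transcripts themselves. The following stretches of coding sequence (GENCODE M21, GRCm38, shown 5′ to 3′ in the direction of transcription) are centered on the first cysteine pair of each ligand, with the cysteine codons in capitals. They are shown because they separate the CC ligands from Cxcl12.
Ccl2: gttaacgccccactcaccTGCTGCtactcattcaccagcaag
Ccl7: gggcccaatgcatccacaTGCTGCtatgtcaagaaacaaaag
Ccl8: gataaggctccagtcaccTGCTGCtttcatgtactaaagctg
Ccl11: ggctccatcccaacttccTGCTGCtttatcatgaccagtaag
Ccl6: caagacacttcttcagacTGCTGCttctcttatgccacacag
Ccl9: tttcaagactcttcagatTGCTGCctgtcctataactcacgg
Cxcl12: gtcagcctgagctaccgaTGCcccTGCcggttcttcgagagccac
All 6 CC ligands used the same codon for both cysteines, and Cxcl12 had 1 codon between them. The Ccl6 stretch lies in coding exon 3 of 4 at chr11:83589368-83589409 on the minus strand, and the Ccl9 stretch in exon 3 of 4 at chr11:83575908-83575949, also minus. Ccl2 (exon 2 of 3, chr11:82036488-82036529) and Ccl7 (exon 2 of 3, chr11:82046520-82046561) lie on the plus strand, the stretches of Ccl8 and Ccl11 cross from exon 1 into exon 2, and that of Cxcl12 lies in exon 2 of 4 at chr6:117171490-117171534 on the plus strand. Ccl6 and Ccl9 stood apart from the other CC ligands in gene structure, with 4 exons against 3 and with 6 cysteine codons from the pair onward against 4. At the length of the reads, 50 bases, no window of the Ccl6, Ccl2, Ccl7, Ccl8, Ccl11 or Cxcl12 transcripts occurred in another annotated gene. The share was 1.97% for Ccl9, none of it with a chemokine gene, 0.269% for Cx3cr1 and 1.91% for Ccr2.

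Between 26790075 and 50368796 reads were assigned to genes per library, and levels below are CPM, each gene's share of its library after TMM scaling. Mustn1 was lower in HET, at 14.2 ± 2.33 CPM against 27.5 ± 3.89 (mean ± SD, n = 3 each; log2 fold change -0.96, SE 0.15, adjusted p = 0.0452, edgeR quasi-likelihood test). Of 14696 genes tested, 21 were higher in HET and 1 lower. Fiber genes of the soleus summed to 88332 to 100726 CPM in HET and 92087 to 95182 in WT. The most abundant of them was Acta1, which is not particular to the soleus. The sum therefore shows skeletal muscle but cannot tell which muscle was taken. The mice are labelled male, but every library had between 3858 and 9154 reads on Xist and at most 12 on 4 Y-linked genes, which goes against that label in both genotypes alike.

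Ccl6 and Ccl9 were higher in the HET soleus, by fitted folds of 3.33 and 2.90. They were the only ones among the 9 genes to pass the test, 2 of the 6 that had enough reads for it, against 0.143% of all genes tested. None of the 9 passed in the other direction, against 0.0068% of all genes. Ccr2 and Cx3cr1 did not overlap between the genotypes but missed the threshold, Ccl11 and Cxcl12 missed it with small differences, and Ccl2, Ccl7 and Ccl8 were too thinly covered to be tested. In 5 of the 6 tested genes (all but Cxcl12) the lowest HET mouse exceeded the highest WT mouse, which held for 7.55% of all genes tested. All 6 tested genes had at least 10 reads in every library, so none of them entered the test through 1 genotype alone. Because whole muscle was sequenced, a change in the number of cells of a type and a change in RNA per cell cannot be told apart.

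Ccl6 (ENSMUSG00000018927, chr11:83587882-83593087, minus strand) encodes C10, a CC chemokine made by macrophages and other myeloid cells that acts through CCR1. Its level was 4.32, 4.69 and 4.55 CPM in HET mice 1 to 3 and 1.14, 1.45 and 1.46 CPM in WT mice 1 to 3. The HET mice lay close together and well clear of the WT mice, the lowest HET value being 2.97 times the highest WT value. The means were 4.52 ± 0.186 and 1.35 ± 0.184 CPM (SD, n = 3), a fitted fold of 3.33 (log2 1.74, SE 0.19, adjusted p = 0.0147). These levels rested on 126 to 200 reads per HET library and 34 to 72 per WT library. With 1 mouse left out, Ccl6 missed the threshold without HET mouse 1 (adjusted p = 0.0654), HET mouse 3 (0.0606), WT mouse 1 (0.0659) or WT mouse 2 (0.0917), while the log2 fold change stayed between 1.63 and 1.80.

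Ccl9 (ENSMUSG00000019122, chr11:83572919-83578636, minus strand) encodes a macrophage inflammatory protein that also signals through CCR1 and recruits myeloid cells and osteoclast precursors. HET mice 1 to 3 had 4.70, 3.46 and 4.94 CPM, and WT mice 1 to 3 had 1.1, 1.59 and 1.78 CPM. The genotypes did not overlap, and HET mouse 2 was the lowest of its group. The means were 4.37 ± 0.793 and 1.49 ± 0.351 CPM, a fitted fold of 2.90 (log2 1.54, SE 0.24, adjusted p = 0.0452). The call was lost without HET mouse 1 (adjusted p = 0.137), HET mouse 3 (0.279), WT mouse 1 (0.147) or WT mouse 2 (0.123), and also with limma-voom (0.0837) or a non-robust dispersion (0.0606).

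The 2 genes stood in a similar proportion to each other in both genotypes. The ratio of Ccl6 to Ccl9 CPM was 0.920, 1.35 and 0.922 in HET and 1.03, 0.911 and 0.818 in WT, so the ranges overlapped. Together they made up 41.4% to 45.0% of the summed CPM of the 6 CC ligands in HET and 24.4% to 27.3% in WT. That sum was 18.2 to 22.9 CPM in HET and 9.19 to 12.2 CPM in WT. The plot of the 9 transcripts by mouse shows these separations side by side.

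**Figure D1:**
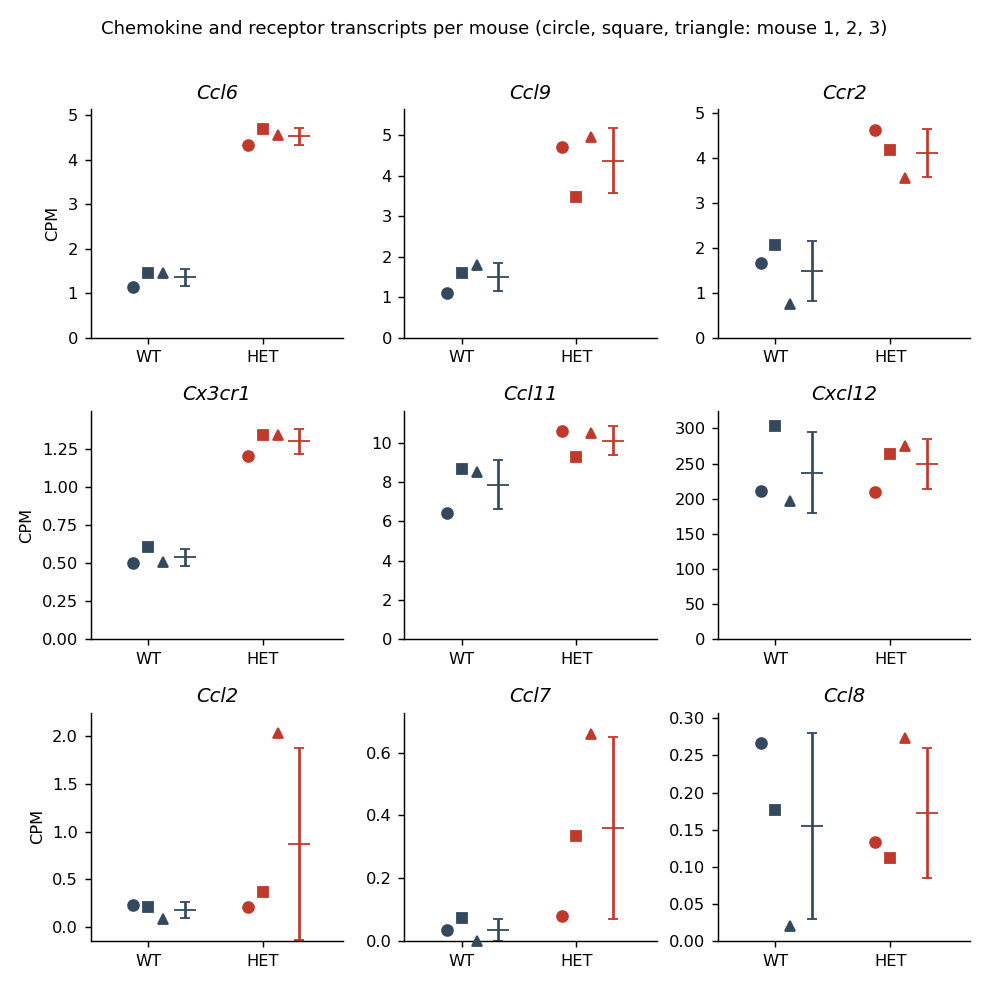
Levels of the 9 transcripts in each mouse, in CPM on a linear axis, with WT in dark blue and HET in red; circles, squares and triangles are mice 1, 2 and 3, which were not paired across genotypes, and the bars give mean ± SD (n = 3). Ccl6, Ccl9, Ccr2, Cx3cr1, Ccl11 and Ccl7 had every HET mouse above every WT mouse, Cxcl12, Ccl2 and Ccl8 overlapped, and HET mouse 3 stood above the other mice for Ccl2 and Ccl7.

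Ccl6 and Ccl9 are neighbors, separated by 9.25 kb on chromosome 11 and read in the same direction. Within 200 kb of them, 19 genes had a read and 9 were tested, and the 2 that passed were Ccl6 and Ccl9 themselves. The lncRNA E230016K23Rik overlaps Ccl6 on the opposite strand, and the reads were counted by strand. The promoters of both genes are printed below, since these are the 2 genes that moved (RefSeq, GRCm38.p6, minus strand, 250 bases before to 50 after the annotated start). Capitals mark the 50-base stretch in which they were most alike when aligned without gaps.
Ccl6, chr11:83593038-83593337: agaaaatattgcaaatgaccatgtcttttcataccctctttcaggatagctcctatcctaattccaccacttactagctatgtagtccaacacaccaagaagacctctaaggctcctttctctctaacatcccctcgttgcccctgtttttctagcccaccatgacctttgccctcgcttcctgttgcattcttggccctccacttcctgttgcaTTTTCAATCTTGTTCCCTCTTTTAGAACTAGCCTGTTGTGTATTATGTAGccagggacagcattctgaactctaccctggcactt
Ccl9, chr11:83578587-83578886: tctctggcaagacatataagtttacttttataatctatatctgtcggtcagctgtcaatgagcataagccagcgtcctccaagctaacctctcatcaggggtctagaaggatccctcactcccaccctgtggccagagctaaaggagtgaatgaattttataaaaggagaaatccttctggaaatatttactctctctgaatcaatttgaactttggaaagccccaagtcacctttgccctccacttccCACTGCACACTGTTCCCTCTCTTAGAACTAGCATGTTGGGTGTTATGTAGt
In that stretch 38 of 50 bases were identical. Among the other 14 pairs of promoters that could be formed from the 6 genes with an entry (Ccl6, Ccl8, Ccl9, Cxcl12, Ccr2 and Cx3cr1), the best such stretch had 25 to 30 identical bases. The longest identical run between Ccl6 and Ccl9 was 13 bases, held on either strand by 6 of 32851 promoters, and the other pairs reached 7 to 10 bases. The alike stretch lies later relative to the annotated start in Ccl9 (from -1) than in Ccl6 (from -35).

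The 2 promoters shared none of the 6 motifs searched on both strands. TATAAA, the letters of the TATA box, occurred in Ccl8 at -32, in Ccl9 farther from the start at -224, -94 and -92, and in 13.6% of all promoters. AGGAAG, a core bound by ETS factors such as the myeloid regulator PU.1, occurred in Ccl6 at -73 and -47, and in Ccl8, and in 35.4% of all promoters. The AP-1 motif TGANTCA occurred in Ccl9 at -53 (7.81% of all promoters), and the general NF-kB motif in Ccl9, Cxcl12 and Cx3cr1 (50.8%). TTGCNNAA, a C/EBP form, and TTCNNNGAA, bound by STAT factors, were in none of the 6 windows (10.8% and 8.30% of all promoters).

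Ccr2 and Cx3cr1, the receptors that distinguish the main monocyte subsets, averaged 4.11 and 1.30 CPM in HET and 1.49 and 0.537 CPM in WT without passing the test. Ccr2 (ENSMUSG00000049103, chr9:124101950-124113557, plus strand) is the receptor for the ligands Ccl2 and Ccl7 and is needed for monocytes to leave the bone marrow. Its level was 4.62, 4.17 and 3.55 CPM in HET mice and 1.67, 2.06 and 0.749 CPM in WT mice. WT mouse 3 was the lowest of all, and the genotypes did not overlap. The log2 fold change was 1.5 (SE 0.32, adjusted p = 0.123), with SDs of 0.535 and 0.671 CPM. Ccr2 passed with DESeq2's Wald test (adjusted p = 0.00103), in which 1.48% of all genes were called higher, and in edgeR without the filter on low counts (2.83e-07), in which 1.33% were.

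Cx3cr1 (ENSMUSG00000052336, chr9:119901616-120069879, minus strand) is the receptor for the membrane-bound chemokine fractalkine. HET mice had 1.20, 1.34 and 1.34 CPM and WT mice 0.501, 0.603 and 0.506 CPM. The spread within each genotype was small, with means of 1.30 ± 0.0814 and 0.537 ± 0.0571 CPM and no overlap. The log2 fold change was 1.27 (SE 0.28, adjusted p = 0.136) on 36 to 59 reads per HET library and 15 to 25 per WT library. Cx3cr1 passed without the filter on low counts (adjusted p = 0.0470), and not with DESeq2 (0.0540). The ratio of Ccr2 to Cx3cr1 was 2.64 to 3.84 in HET and 1.48 to 3.41 in WT, with overlapping ranges. The fractalkine gene Cx3cl1 itself was at 4.19 ± 0.370 CPM in HET and 3.93 ± 0.623 in WT (log2 0.10, SE 0.18, adjusted p = 0.953).

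Ccl11 (ENSMUSG00000020676, chr11:82057823-82062955, plus strand) encodes eotaxin, which attracts eosinophils through CCR3. Its level was 10.6, 9.27 and 10.5 CPM in HET mice and 6.42, 8.65 and 8.52 CPM in WT mice. The genotypes did not overlap, but the lowest HET mouse was only 1.07 times the highest WT mouse. The log2 fold change was 0.36 (SE 0.15, adjusted p = 0.574). Eosinophils could not be followed, since Epx, Il5ra and Ear6 had 0 reads and Ccr3 had 8 reads in all 6 libraries together.

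Cxcl12 (ENSMUSG00000061353, chr6:117168535-117181367, plus strand), the stromal ligand of CXCR4, was by far the most abundant of the 9 transcripts and did not separate the genotypes. HET mice had 209, 264 and 275 CPM and WT mice 211, 303 and 196 CPM. The highest mouse of all was a WT mouse. The log2 fold change was 0.07 (SE 0.17, adjusted p = 0.966), and its sign turned when HET mouse 3, WT mouse 1 or WT mouse 3 was left out, with values from -0.04 to 0.29 over the 6 such fits. Its signaling receptor Cxcr4 was at 3.16 ± 0.150 and 2.88 ± 0.502 CPM (log2 0.14, SE 0.19, adjusted p = 0.933), and its scavenging receptor Ackr3 at 25.6 ± 2.74 and 20.2 ± 2.26 CPM (log2 0.34, SE 0.12, adjusted p = 0.441). The peptidase gene Dpp4, whose product trims and inactivates CXCL12, had 3.60, 3.72 and 6.63 CPM in HET mice and 1.07, 1.84 and 2.65 in WT mice (log2 1.30, SE 0.34, adjusted p = 0.240), without overlap.

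Per length of transcript (TPM, computed from the counts and the annotated exon length), Cxcl12 led in both genotypes with 90.5 ± 14.4 TPM in HET and 78.5 ± 18.7 in WT, followed by Ccl11 with 27.7 ± 2.51 and 19.8 ± 3.48 TPM. Ccl6 came next, at 7.47 ± 0.370 TPM in HET and 2.05 ± 0.316 in WT, and then Ccl9, at 4.26 ± 0.861 and 1.34 ± 0.341 TPM. These 4 kept their order in both genotypes, and no neighbors among them overlapped over the mice. Below Ccl9 each gene overlapped with the next, down to Cx3cr1 in HET (0.853 ± 0.0667 TPM) and as far as Cx3cr1 in WT (0.324 ± 0.0342), where Ccl7 lay lower without overlap (0.117 ± 0.120). Between Ccl9 and Cx3cr1 the order was Ccl2, Ccr2, Ccl7 and Ccl8 in HET, and Ccl8, Ccr2 and Ccl2 in WT.

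Ccl2, Ccl7 and Ccl8 were at or near the limit of detection. For Ccl2 and Ccl7, the monocyte-attracting ligands of CCR2, 1 mouse set most of what was seen. Ccl2, Ccl7 and Ccl8 lie with Ccl11 and Ccl12 in a cluster that spans 81.2 kb, 1456 kb from Ccl9 and Ccl6 on the same chromosome. Ccl2 (ENSMUSG00000035385, chr11:82035571-82037453) had 8, 10 and 89 reads in HET mice and 7, 6 and 4 in WT mice. HET mouse 3 held 83.2% of the HET reads. HET mouse 1 lay within the WT range, and HET mouse 2, at 0.372 CPM, lay above the highest WT mouse, at 0.234 CPM. The HET mean was 4.95 times the WT mean, and 1.67 times without HET mouse 3.

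Ccl7 (ENSMUSG00000035373, chr11:82045712-82047525) had 3, 9 and 29 reads in HET mice and 1, 2 and 0 in WT mice. Each HET mouse exceeded each WT mouse, although by as little as 0.0801 against 0.0709 CPM, where 0.0801 CPM is the 3 reads taken as the floor of detection in that library. Over the pooled reads, 41 against 3, the ratio was 13.6 with an exact 95% interval of 4.33 to 68.5, which covers counting error only and not the spread between mice. Ccl8 (ENSMUSG00000009185, chr11:82115185-82116799) had 5, 3 and 12 reads in HET and 8, 5 and 1 in WT. Its values overlapped, with means of 0.173 ± 0.0877 and 0.155 ± 0.125 CPM. Ccl2 and Ccl7 passed only when genes with few reads were not removed (adjusted p = 0.00027 and 0.00653), and neither passed when the genes of the authors' table were tested (0.509 and 0.275).

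The same mouse stood out over other thin chemokine genes. Of 20 chemokine ligand and receptor genes with at least 10 reads in total that were not tested, 14 were highest in HET mouse 3. For comparison, 17.9% of all untested genes with 10 to 300 reads were highest there, and 19.5% of all reads came from it. The neutrophil-attracting ligand Cxcl2 had 80 of its 92 reads in that mouse, the macrophage inflammatory proteins Ccl3 and Ccl4 had 13 of 17 and 12 of 16, and Ccr1, the receptor for CCL6 and CCL9, had 42 of 87. This grouping was chosen after the values had been seen. Thinly covered markers of neutrophils and of classical monocytes were highest in the same mouse, while better covered ones mostly were not. All 6 neutrophil markers that had at least 10 reads and were not tested were highest there, with 56 of 75 reads of S100a9, 16 of 23 of S100a8, 15 of 15 of Retnlg and 13 of 19 of Mmp8, while Ly6g had 0 reads in every library. The neutrophil markers summed to 7.36 CPM in HET mouse 3 and to 4.38 to 5.02 CPM in the other 5 libraries, most of it Csf3r, the G-CSF receptor. Csf3r itself was highest in HET mouse 1, at 4.75 CPM against 4.33 in HET mouse 3. All 4 such monocyte markers were highest there too, among them Ly6c2 (35 of 52 reads), Chil3 (57 of 76) and Plac8 (45 of 74). Of the tested monocyte markers, Itgal was highest there, but Ace was highest in WT mouse 3 and Spn in HET mouse 1. The part of neutrophils and monocytes in the chemokine values was not tested. Without HET mouse 3, the HET means of Ccl6, Ccl9, Ccr2 and Cx3cr1 were still 3.34, 2.73, 2.95 and 2.37 times the WT means.

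**Figure D2:**
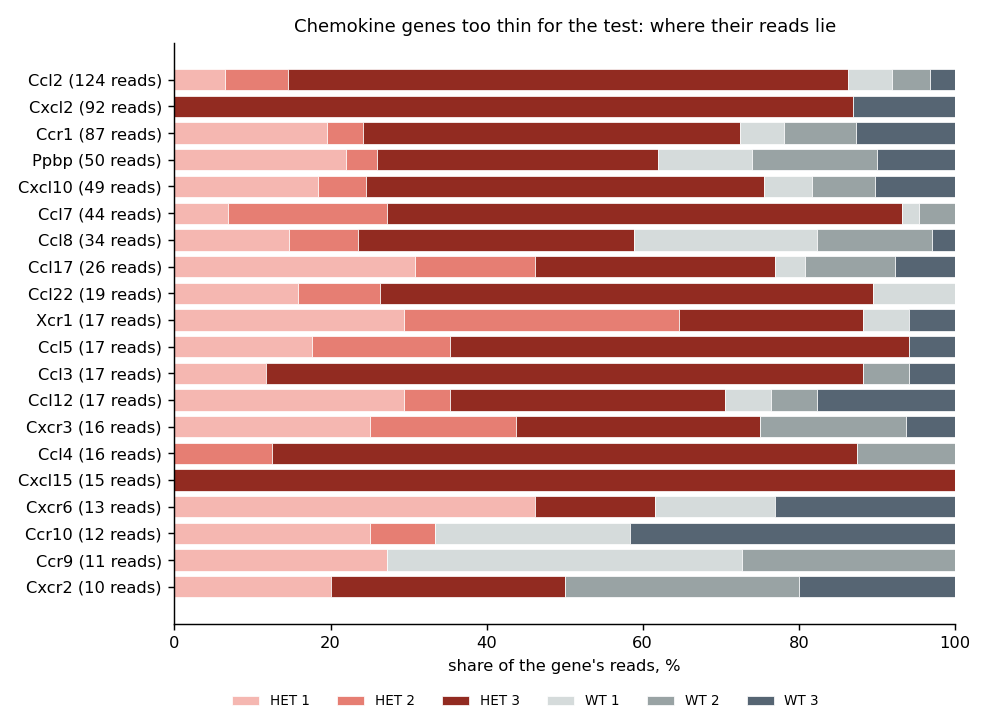
Share of each gene's reads that came from each of the 6 mice, in percent, for the 20 chemokine ligand and receptor genes with at least 10 reads that were too thinly covered to be tested; the total number of reads is given beside each symbol. HET mouse 3, in dark red, held 89 of 124 reads of Ccl2, 80 of 92 of Cxcl2 and 29 of 44 of Ccl7.

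The rest of the chemokine system gave no further calls. Of 31 other chemokine ligands, 28 had a read, 11 were tested and 0 passed in either direction with edgeR. At an unadjusted edgeR p under 0.05, 3 were higher and 2 lower, against 5.76% and 2% of all genes tested. Pf4 passed with DESeq2 (adjusted p = 0.0179), in which 1.48% of all genes were called higher. The median log2 fold change of the 11 tested ligands was 0.20, against -0.02 over all genes. The largest was that of Ccl24, the second eotaxin (0.751 ± 0.247 CPM in HET and 0.257 ± 0.0398 in WT, log2 1.56, SE 0.41, adjusted p = 0.222), which had fewer than 10 reads in some libraries. Pf4, a platelet and macrophage chemokine, followed with log2 1.17 (SE 0.26, adjusted p = 0.131), and Cxcl14, made by stromal cells, with 0.52 (SE 0.17, adjusted p = 0.385). The lowest were the epithelial ligands Ccl28 (log2 -0.62, SE 0.27, adjusted p = 0.607) and Ccl27a (log2 -0.51, SE 0.22, adjusted p = 0.612) and the neutrophil-attracting Cxcl1 (log2 -0.38, SE 0.63, adjusted p = 0.947).

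Of 21 other receptors, 19 had a read, 7 were tested and 0 passed with edgeR. With DESeq2, 1 was called higher in HET, against 1.48% of all genes tested. At an unadjusted edgeR p under 0.05, 3 were higher and 0 lower, against 5.76% and 2% of all genes tested. The log2 fold change exceeded 0 in all 7, and its median was 0.44. Over the 5 that had at least 10 reads in every library the median was 0.34. The scavenging receptor Ackr2, which removes inflammatory CC chemokines, had log2 1.17 (SE 0.40, adjusted p = 0.416), and Ackr4 0.64 (SE 0.55, adjusted p = 0.879). The Duffy receptor Ackr1 of venules had 0.44 (SE 0.20, adjusted p = 0.662), and Ccrl2 0.02 (SE 0.15, adjusted p = 0.985). Ccr1 was not tested, at 0.520 ± 0.408 CPM in HET and 0.224 ± 0.0582 in WT, nor was Ccl12, at 0.102 ± 0.0565 and 0.0432 ± 0.0152 CPM. Ccr8 had 0 reads.

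**Figure D3:**
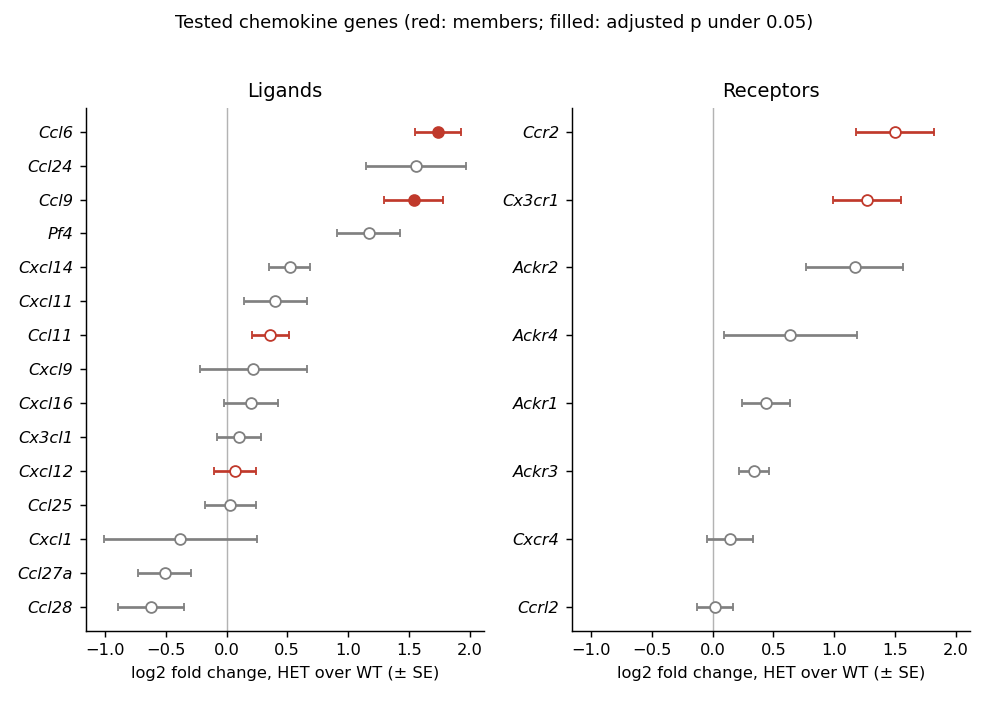
Log2 fold change of HET over WT with its standard error (edgeR) for tested chemokine ligands (left) and receptors (right) reported here, with the genes described here in red, the others in gray, and filled points where the adjusted p was under 0.05. Ccl6 (1.74) and Ccl9 (1.54) are the filled points, and Ccl24 (1.56) and Ccr2 (1.5) lie as far from 0 with larger errors.

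Among 21 genes that relay or process chemokine signals, 20 were tested and 0 passed with edgeR. Dock2 and Dpp4 passed with DESeq2 (adjusted p = 0.0161 and 0.0119), in which 1.48% of all genes were called higher. At an unadjusted edgeR p under 0.05, 10 were higher and 0 lower, against 5.76% and 2% of all genes tested. In 17 of the 20 the log2 fold change exceeded 0, and the median was 0.61, or 0.36 over the 16 with at least 10 reads in every library. The highest were those of leukocytes, the Src-family kinase Fgr (log2 1.86, SE 0.51, adjusted p = 0.256) and the exchange factor Vav1 (1.45, SE 0.43, adjusted p = 0.312), followed by Dpp4. Fgr and Vav1 had fewer than 10 reads in some libraries. Fgr had 4, 3 and 3 in WT mice 1 to 3, and Vav1 had 8 in WT mouse 1. The lowest were genes of every cell type, the sheddases Adam10 (-0.08, SE 0.10, adjusted p = 0.922) and Adam17 (-0.04, SE 0.09, adjusted p = 0.969), which release fractalkine from the membrane, and the receptor kinase Grk6, with a value that rounds to no difference (adjusted p = 0.998).

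Some markers of macrophages, and 1 of fibro-adipogenic progenitors, were higher in HET as well. Of 15 macrophage markers, 4 were higher in HET, the complement genes C1qa and C1qb, the CSF1 receptor Csf1r and Adgre1, which encodes F4/80. Of all genes tested, 0.143% were higher. A log2 fold change above 0 was seen in 14 of the 15 markers. The median of the 15 was 1.39, and their summed level was 106 to 134 CPM in HET and 66.7 to 92.8 in WT, without overlap. Of 14 markers of fibro-adipogenic progenitors, Pi16 was higher in HET, all 14 had a log2 fold change above 0 (median 0.69), and the sums were 2266 to 2961 CPM in HET and 1120 to 1748 in WT. The 7 tendon markers (0 passed, median 1.04) and the mast cell markers (6 tested, 0 passed, median 1.94, or 0.57 over the 3 with at least 10 reads in every library) had sums without overlap as well, 356 to 612 against 118 to 287 CPM and 6.78 to 8.90 against 3.14 to 4.93 CPM.

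The sums of most other cell types overlapped. Monocyte markers summed to 40.1 to 49.8 CPM in HET and 34.9 to 48.5 in WT, most of it Ace (38.6 to 44.4 and 33.5 to 46.9 CPM). Dendritic cell markers summed to 14.6 to 16.6 and 14.2 to 16.2 CPM, most of it Zbtb46 (9.76 ± 0.890 and 11.7 ± 1.09 CPM, SD, n = 3). Of 6 dendritic cell markers tested, 0 passed and 5 lay above 0 (median log2 fold change 1.20, or 0.17 over the 3 with at least 10 reads in every library). T and NK cell markers summed to under 1 CPM in every library, with overlapping ranges. Endothelial markers overlapped (675 to 822 against 711 to 874 CPM), adipocyte markers overlapped with a wide spread (70.0 to 222 against 24.6 to 97.1 CPM), and markers of smooth muscle and pericytes had sums that did not overlap but were the lower ones in HET (1098 to 1226 against 1229 to 1394 CPM).

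Set against the macrophage markers, Ccl6 and Ccl9 were higher per marker in each HET mouse than in any WT mouse. Ccl6 was at 3.22, 4.45 and 3.40 CPM per 100 CPM of summed macrophage markers in HET mice and at 1.7, 1.81 and 1.57 in WT mice. On the log2 scale this is a difference of 1.11, of the 1.75 seen for CPM on that scale, and for Ccl9 it is 0.91 of 1.56. Each reached the smallest p that an exact two-sided permutation test of 3 against 3 mice allows, 0.1 (adjusted over the 9 genes, 0.18), so this test could not pass 0.05 for any gene.

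The 2 receptors and the 2 stromal ligands gave other patterns. Cx3cr1 had a difference of 0.63 per summed macrophage markers (0.893, 1.27 and 1.0 per 100 CPM in HET, 0.752, 0.751 and 0.545 in WT), without overlap. For Ccr2 the difference was 0.93, with 3.43, 3.95 and 2.65 per 100 CPM in HET and 2.51, 2.56 and 0.807 in WT, and the lowest HET mouse lay just above the highest WT mouse. Relative to the summed markers of fibro-adipogenic progenitors, Cxcl12 was at 9.21, 9.91 and 9.29 CPM per 100 CPM in HET mice and at 18.8, 19.6 and 11.2 in WT mice, a log2 difference of -0.76, and Ccl11 was at 0.468, 0.349 and 0.354 and at 0.573, 0.561 and 0.488, a difference of -0.48. In both, the highest HET mouse lay under the lowest WT mouse (exact permutation p = 0.1, adjusted 0.18), whereas their CPM differed by 0.09 and 0.37 in the other direction. Largest in the marker sum were Gsn, Col1a1, Col3a1 and Dcn, at means of 677, 625, 582 and 302 CPM in HET and 370, 267, 327 and 202 in WT. Without Col1a1 and Col3a1 in the sum, the differences were -0.63 for Cxcl12 and -0.35 for Ccl11. What part changes in cell number had in these values was not tested.

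**Figure D4:**
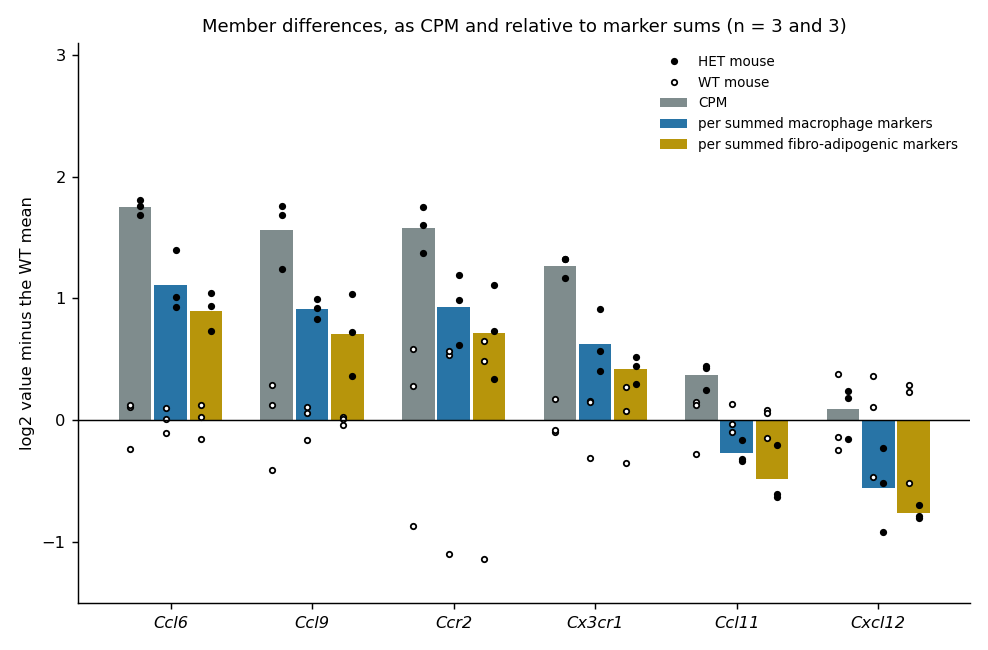
Differences between the genotypes for the 6 tested genes on a log2 scale, as CPM (gray), per summed CPM of 15 macrophage markers (blue) and per 14 markers of fibro-adipogenic progenitors (ochre); bars are the difference of the means, and filled and open points are the HET and WT mice, each relative to the WT mean. Ccl6 goes from 1.75 to 1.11 and 0.90, and Cxcl12 from 0.09 to -0.56 and -0.76.

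The genes whose profiles over the 6 mice came nearest to each of the 6 tested genes were found by the root mean square difference of centered log2 CPM, over 12404 or 12405 genes with a mean of at least 1 CPM. These are descriptions, since all profiles share the libraries and the 2 genotypes. Nearest to Ccl6 were C1qb (0.168) and C1qa (0.181), and nearest to Ccl9 were Adgre1 (0.082) and the macrophage folate receptor Folr2 (0.105). Ccl6 and Ccl9 differed from each other by 0.226. The 2 nearest to Cx3cr1 were leukocyte genes of cell movement, Coro1a (0.057), which was higher in HET (log2 1.21, adjusted p = 0.0493), and Dock2 (0.089), and those nearest to Ccr2 were the macrophage gene Fcrls (0.173) and the MHC class II gene H2-Eb1 (0.292). Ccl11 was nearest to Lacc1 (0.052) and Rasa3 (0.053), and Cxcl12 to 9930014A18Rik (0.048) and Spata13 (0.057), none of which passed the test.

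**Figure D5:**
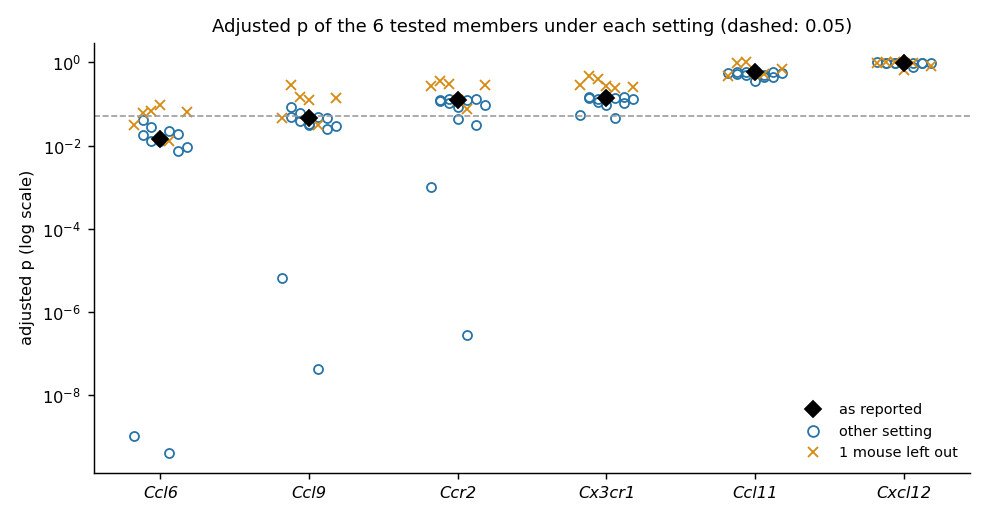
Adjusted p on a log axis for each of the 6 tested genes as reported (black diamonds), under each other setting of the test (blue circles) and with 1 mouse left out (orange crosses); the dashed line is 0.05. Ccl6 passed in 14 of 18 alternatives and Ccl9 in 12, Ccr2 in 4 and Cx3cr1 in 1, and Ccl11 and Cxcl12 in none.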

How the data were processed

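Soleus RNA from 3 HET and 3 WT mice was sequenced as single reads of 50 bases. Per the file headers and the submitters' processing notes, the authors aligned reads with STAR 2.7.3a to GRCm38.p6 and made the deposited raw counts per gene with featureCounts 2.0.3 in reverse-stranded mode. The authors' normalized signal was the deposited count divided by 1 size factor per library (0.773 to 1.42), and served to choose the genes. A further deposited file with the authors' own comparison (fold changes and p-values) was not used. No column was left unmatched (0).

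Genes were filtered with filterByExpr (minimum count 10), scaled by TMM and tested with edgeR 4.0.16 (robust quasi-likelihood, genotype only, R 4.3.3), with Benjamini-Hochberg adjustment over all 14696 genes and a threshold of 0.05. The test was checked on simulated data. SE is the log2 fold change divided by the root of F. Ratios to summed marker CPM used an exact permutation test and a pseudocount of 0.05 CPM where a library had 0 reads. Named genes were the 9 genes, their ligands and receptors, called genes, the 3 highest and 3 lowest tested in each pathway list, the called and most abundant markers, and the 2 nearest profiles. Some genes this rule would name are not reported here. Genes and lists were chosen with earlier results of these data known. Counting precision is set by the reads given beside each gene, and p-values measure the spread between these mice. Alternatives used DESeq2 1.42.0, limma 3.58.1, other scalings and filters, gene length, a replicate block and fits without 1 mouse.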

Additional observations from a re-analysis of the deposited data

How the results depend on the processing

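The number of genes called is small and moves with the test. Against 21 higher and 1 lower, there were 386 and 18 without the filter on low counts, 218 and 8 with DESeq2, 3 and 0 with limma-voom, 6 and 0 with a non-robust dispersion, 114 and 2 with the replicate block and 140 and 2 with the block and a gene-length offset; leaving out 1 mouse gave 0 to 77 higher and 0 to 6 lower. Of the 9 genes, 2 were called higher (0.143% of all genes tested), against 6 without the filter (1.33%). There were 3 with DESeq2 (1.48%), 3 with the replicate block (0.776%) and 3 with the block and the length offset (0.953%). Limma-voom and the non-robust dispersion gave 1 each (0.0204% and 0.0408%), and leaving out a mouse gave 0 to 2. The other ligands had 2 calls without the filter (Pf4 and Cxcl14) and 1 with DESeq2 (Pf4), the other receptors 1 and 1, and the signaling genes 2 and 2 (Dock2 and Dpp4), with 1 in either fit with the replicate block (Dpp4).

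Mustn1 had a log2 fold change of -0.99 with limma-voom (adjusted p = 0.0673) and -0.96 with the non-robust dispersion (0.0606), and Ccl9 had 1.55 (0.0837) and 1.54 (0.0606). Ccr2 passed at 1.52 without the filter, 1.5 with DESeq2 (0.00103), 1.56 with the replicate block (0.0434) and 1.56 with the block and the length offset (0.0312). Without the filter, Ccl2 (2.43), Ccl7 (3.50) and Cx3cr1 (1.28) passed as well. With a mouse left out, the values ranged from -1.09 to -0.88 for Mustn1, 1.63 to 1.80 for Ccl6, 1.37 to 1.7 for Ccl9, 1.14 to 1.81 for Ccr2, 1.23 to 1.35 for Cx3cr1, 0.24 to 0.43 for Ccl11, -0.04 to 0.29 for Cxcl12, 0.74 to 2.77 for Ccl2, 2.58 to 4.42 for Ccl7 and -0.36 to 0.81 for Ccl8. The cause of these differences between settings was not tested. The scalings by RLE, upper quartile and library size changed no call among the 9 genes, and they moved the median of all genes to -0.01, 0.01 and 0.06.

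Same-numbered mice did not deviate together (correlations of 0.203, -0.00578 and -0.0349), so the replicate block was not taken as a pairing. Of 126 alternative values of the marker ratios, 124 moved by less than 1 SD and 2 by more. The sign turned in 5, all for Ccl8: its ratio to macrophage markers (log2 difference, HET minus WT) went from 0.05 to -0.28 without HET replicate 3 and -1.21 without WT replicate 3, and its ratio to fibro-adipogenic progenitor markers from -0.16 to 0.11 without HET replicate 2, 0.74 without WT replicate 1 and 0.22 without WT replicate 2. At 34 to 72 WT reads for Ccl6 and fewer than 10 per WT library for Ccl2, Ccl7 and Ccl8, depth limits what can be said of the last 3.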
